A study of Mus musculus with 9 samples.

Results

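The genes described here encode tubulins, kinesins and cytoplasmic dyneins, the building blocks and motors of microtubules. They were taken by symbol, as every probe set annotated with a single gene whose symbol begins Tuba, Tubb, Tubg or Kif followed by a digit, or Dync or Dynl. This gave 150 probe sets for 65 genes, of 45101 probe sets and 18193 named genes on the array. Of the 65 genes, 15 were tubulins, 37 kinesins and 13 dyneins. A further 11 probe sets carry a matching symbol together with other symbols and were left out, among them those for Tuba1b and Tuba1c.

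Microtubules are polymers of alpha and beta tubulin, and gamma tubulin starts their growth at the centrosome. Kinesins are motors that mostly walk towards the growing ends of microtubules or take their ends apart, and cytoplasmic dynein walks the other way. Dividing cells use one set of kinesins to build the spindle, line up chromosomes and complete cytokinesis. Neurons, which no longer divide, fill axons and dendrites with neuron-enriched tubulins and use other kinesins and dynein for transport along them.

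Gene expression was measured on 9 Affymetrix mouse arrays in 3 groups of 3. All cells came from a single embryonic stem (ES) cell line, Ainv15, with a Cdx2-V5 construct that is switched on by doxycycline, so the construct was present in each group. The ES group was untreated at day 0 and had grown on mitomycin-C-treated fibroblast feeder cells with LIF. The motor neuron group was embryoid-body cultures at day 5, exposed to 1 µM retinoic acid and 0.5 µM of the hedgehog agonist SAG. The third group, also at day 5 and called Cdx2-FGF here, had these agents plus 2 µg/ml doxycycline and 100 ng/ml basic FGF, which were given together, so that the part of each cannot be told apart. The growth protocol further mentions a wash and lower doses of retinoic acid and agonist with FGF, without naming the cultures concerned. The labels do not state that the arrays of a group came from separate cultures, so p-values reflect variation among arrays alone, possibly technical.

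The induced gene followed the labels. Cdx2 read 8.27, 8.99 and 8.59 (log2 expression) on the Cdx2-FGF arrays and at most 2.24 on the ES and motor neuron arrays, by its brighter probe set. All 6 ES markers were above 4 in ES cells, and 5 of 6 were below 4 on every day 5 array. Of 6 motor neuron markers, Mnx1, Isl1, Slc18a3 and Lhx3 were above 4 on every motor neuron array, while Chat, the enzyme that makes acetylcholine, was below 4 on all 9 arrays. Control probe sets sample both ends of one transcript. The 3′ probe set of Actb exceeded the 5′ one by 2.07 ± 0.219 (SD, n = 3) on ES arrays, against -0.04 ± 0.0119 on motor neuron arrays, and for Tfrc the excess was 6.25 ± 0.637 against -1.5 ± 0.0947. An exact permutation test, two-sided, gave p = 0.1 for both, the smallest that 3 arrays a side allow. For Gapdh the excess was 0.8 ± 0.217 on ES arrays against 0.62 ± 0.0304 on motor neuron arrays (exact permutation p = 0.2), and the groups overlapped. In Cdx2-FGF cultures the Actb and Tfrc differences were -0.04 and -1.62, close to those of motor neuron cultures. Control probe sets of 18S ribosomal RNA (3′, 5′ and middle) averaged 6.35, 4.1 and 11.4 on ES arrays. They averaged 15.48, 15.05 and 15.54 on motor neuron arrays, and 15.38, 14.94 and 15.49 on Cdx2-FGF arrays. Every ES array carried the larger Actb and Tfrc differences and the lower 18S values. In comparisons with ES cells, these cannot be told apart from the cell state.

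Each gene was followed by whichever of its probe sets had the highest mean across arrays, and it was tested if that probe set was above 4 on at least 3 arrays. Below 4, values lie near the floor of 2.165 that the arrays share. Of the 65 genes, 49 were tested: 11 tubulins, 28 kinesins and 10 dyneins. Of the 16 others, 15 were below 4 on every array, among them the neuronal Kif17 and Dync1i1, the mitotic Kif14, and the platelet tubulin Tubb1. The exception was the mitotic Kif15, at 5.89, 2.47 and 5.27 in ES cells and below 4 on all day 5 arrays. Kif26b was below 4 in both other groups and passed by its Cdx2-FGF arrays alone. Kif1a was below 4 on every ES array and passed by its day 5 arrays alone. Against the groups below 4, these genes could only come out higher, and they are counted among the rises below. A gene was called when its adjusted p (limma, Benjamini-Hochberg over all 10911 genes tested) was below 0.05 and its log2 difference was at least 1.

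From ES cells to motor neuron cultures, 21 of the 49 tested genes rose (42.9%) and 6 fell (12.2%). Over all genes tested, 25.9% rose and 30.7% fell. With each array centred on its median, 24 members rose and 4 fell, where 33.5% of all genes rose and 23.9% fell. The median log2 difference was 0.56 over the members and -0.08 over all genes. Of the 11 tested tubulins 8 rose and 1 fell, of the 28 kinesins 9 rose and 5 fell, and of the 10 dyneins 4 rose and none fell. From motor neuron to Cdx2-FGF cultures, 9 of the 49 rose (18.4%) and 10 fell (20.4%), where 11.2% of all genes rose and 8.61% fell. Here the medians were -0.03 over the members and 0.04 over all genes. In this comparison the count of 9 dropped to 4 without motor neuron replicate 1 and to 5 without Cdx2-FGF replicate 1. In bulk RNA, fewer cells of a type and less RNA per cell cannot be told apart.

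The neuronal list held 13 genes, of which 11 were tested. From ES cells to motor neuron cultures 10 of the 11 rose (90.9%, where 25.9% of all genes did) and none fell. Of these 10, Kif1a could only rise, as it was tested through its day 5 arrays alone. Over the 11 genes the median log2 difference was 2.48, with a range of 0.98 to 6.2. From motor neuron to Cdx2-FGF cultures 7 of the 11 fell (63.6%, where 8.61% of all genes did) and none rose. The median was then -1.33, with a range of -5.79 to -0.19. Taking for each array the median deviation of the 11 genes from their own means, ES arrays stood at -1.15, -1.16 and -0.7, motor neuron arrays at 1.52, 1.43 and 1.31, and Cdx2-FGF arrays at 0, -0.15 and -0.01. The 3 groups did not overlap on this scale, and the Cdx2-FGF arrays lay between the other two.

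Among the neuronal tubulins, Tubb3, the beta tubulin used as a marker of neurons, read 8.89, 8.06 and 10.02 on ES arrays, 14.56, 14.49 and 14.32 on motor neuron arrays, and 11.86, 11.82 and 11.74 on Cdx2-FGF arrays. It rose 44.2-fold (log2 difference 5.47, SE 0.39, adjusted p = 1.08e-06) and then fell 6.26-fold (log2 difference -2.65, SE 0.39, adjusted p = 0.000705), with no overlap between groups. Tubb4a, a beta tubulin of the brain, read 4.29, 2.19 and 6.91 on ES arrays, 11.11, 10.76 and 10.11 on motor neuron arrays, and 6.16, 5.56 and 5.04 on Cdx2-FGF arrays. Its ES arrays were widely spread and overlapped the Cdx2-FGF arrays, while every motor neuron array was higher than all others. The rise was at least 48.5-fold (adjusted p = 0.000251), with the ES array below 4 set to 4, and the later fall was 33.7-fold (adjusted p = 0.00328).

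Tubb2a, another neuron-enriched beta tubulin, read 11.13, 10.99 and 11.55 on ES arrays, 13.6, 13.58 and 13.26 on motor neuron arrays, and 11.68, 11.7 and 11.82 on Cdx2-FGF arrays. It rose 4.77-fold (adjusted p = 9.73e-07) and fell 3.34-fold (adjusted p = 3.11e-05), and its Cdx2-FGF arrays lay just above the ES arrays. A second Tubb2a probe set gave 3.61 and -1.97, and was 1.64 higher in Cdx2-FGF cultures than in ES cells (adjusted p = 1.72e-05, in the limma fit with each probe set tested by itself, from which the p of any further probe set comes). Tubb2b, whose mutation disturbs neuronal migration, read 13.73, 13.36 and 13.67, then 14.86, 14.85 and 14.79, then 14.03, 13.91 and 14.07 on the ES, motor neuron and Cdx2-FGF arrays, an order kept for the genes that follow. Its rise was 2.37-fold (adjusted p = 2.32e-06), and the later difference of -0.83 (SE 0.10, adjusted p = 0.000198) was below the minimum of 1 although the groups did not overlap. Tuba1a, the main alpha tubulin of young neurons, read 13.8, 13.63 and 14.43, then 15.37, 15.33 and 15.22, then 14.78, 14.72 and 14.74. It rose 2.55-fold (adjusted p = 5.82e-05), and the later difference was -0.56 (adjusted p = 0.0316). The Tuba1a probe set is of a kind that can also take up RNA of closely related genes, so its value may include other alpha tubulins.

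**Figure D1:**
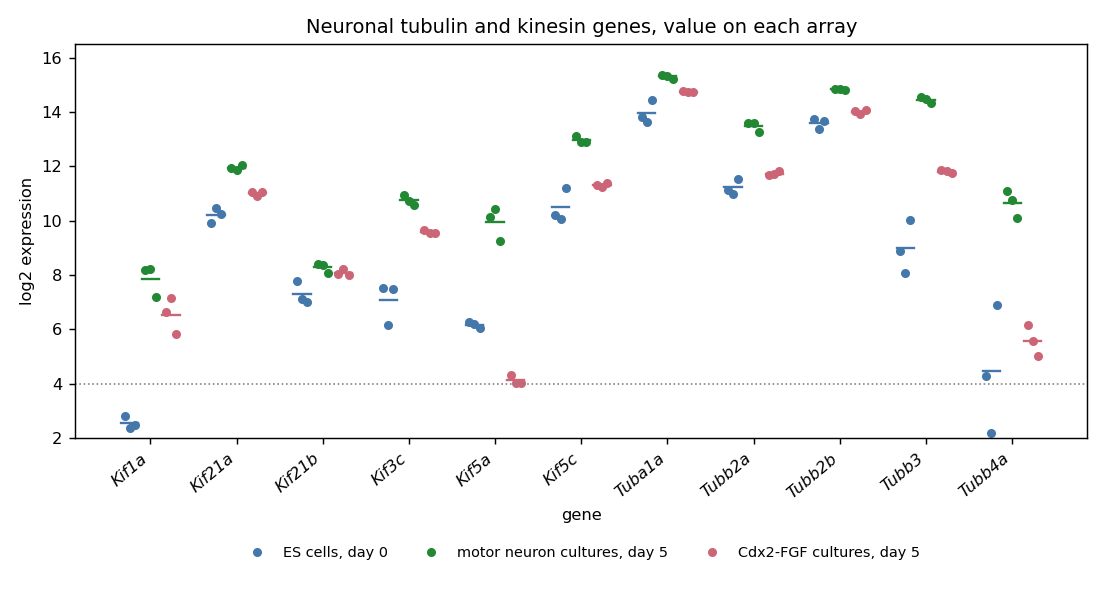
Log2 expression of the 11 tested neuronal members on each of the 9 arrays (points) with group means (bars); the dotted line marks 4, the level a gene had to pass to be tested. Tubb3 runs from 8.06 to 10.02 on ES arrays, 14.32 to 14.56 on motor neuron arrays, and 11.74 to 11.86 on Cdx2-FGF arrays, and Kif5a is the member whose Cdx2-FGF arrays, at 4.04 to 4.34, lie below its ES arrays.

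Among neuronal kinesins, Kif5a, a heavy chain of the conventional kinesin that carries cargo down axons, changed the most between the day 5 groups. It read 6.28, 6.19 and 6.05 on ES arrays, 10.12, 10.43 and 9.26 on motor neuron arrays, and 4.34, 4.04 and 4.04 on Cdx2-FGF arrays. It rose 13.6-fold (adjusted p = 3.17e-06) and then fell 55.5-fold (log2 difference -5.79, SE 0.31, adjusted p = 1.17e-06), to below its ES level. A second Kif5a probe set, below 4 on all ES and Cdx2-FGF arrays, gave at least 2.16 for the rise and at least as much for the fall with those values set to 4. Kif5c, the other neuron-enriched heavy chain, read 10.2, 10.05 and 11.21, then 13.11, 12.89 and 12.9, then 11.33, 11.24 and 11.37. It rose 5.58-fold (adjusted p = 1.68e-05) and fell 3.15-fold (adjusted p = 0.00111). Its 2 other tested probe sets gave rises of at least 7.09 and 6.35 from ES cells, with ES values below 4 set to 4, and differences of -1.93 and -2.7 between the day 5 groups. Kif5b, the heavy chain found in most cells, was not called in either comparison (0.55 and 0.09).

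Kif1a, which carries synaptic vesicle precursors, read 2.82, 2.36 and 2.49 on ES arrays, 8.17, 8.23 and 7.21 on motor neuron arrays, and 6.64, 7.14 and 5.83 on Cdx2-FGF arrays. It rose at least 14.6-fold (adjusted p = 1.59e-06). Tested through its day 5 arrays alone, it could only come out higher than in ES cells. The later fall of 1.33 on the log2 scale (adjusted p = 0.0292) was a narrow call. That call was lost without motor neuron replicate 1 or 2 or Cdx2-FGF replicate 1 or 3 (differences -1.38 to -0.98, adjusted p 0.0712 to 0.109). A second Kif1a probe set gave 0.67 and -0.08. Kif3c, a subunit of a heterotrimeric kinesin of neurons, read 7.54, 6.18 and 7.49, then 10.96, 10.73 and 10.56, then 9.64, 9.55 and 9.55. It rose 12.8-fold (adjusted p = 6.52e-06) and fell 2.25-fold (adjusted p = 0.0253). The fall was no longer called without any one of the 3 Cdx2-FGF replicates or motor neuron replicate 1 or 2 (differences -1.2 to -1.06, adjusted p 0.0683 to 0.0987), although the groups did not overlap.

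Kif21a, a kinesin that restrains microtubule growth, read 9.91, 10.47 and 10.25, then 11.95, 11.85 and 12.06, then 11.06, 10.91 and 11.06. It rose 3.35-fold (adjusted p = 4.95e-06), and the difference between the day 5 groups was -0.94 (adjusted p = 0.00139), short of 1. A second Kif21a probe set gave a rise of at least 6.38, with ES values below 4 set to 4. Between the day 5 groups it gave -1.13 (adjusted p = 0.168). Kif21b, its relative in dendrites, read 7.79, 7.13 and 7, then 8.4, 8.36 and 8.08, then 8.03, 8.22 and 8.01. By its chosen probe set it was the one tested neuronal member not called in either comparison. The differences were 0.98 (adjusted p = 0.00607), just short of 1, and -0.19 (adjusted p = 0.638), and its day 5 groups overlapped. A second Kif21b probe set, below 4 on every ES array, was called higher in motor neuron cultures than in ES cells (adjusted p = 0.00135). That rise was at least 1.05 with ES values set to 4. The mean of both probe sets was called there too (1.5, adjusted p = 0.00125).

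Markers of neurons mostly moved in the direction of this list in each step. Of 7 neuron markers outside the family, 6 rose from ES cells to motor neuron cultures and 6 fell from there to Cdx2-FGF cultures, where Syt1 was below 4. The log2 of their summed level ran from 13.26 to 13.6 on ES arrays, 15.56 to 16.02 on motor neuron arrays, and 12.38 to 12.66 on Cdx2-FGF arrays. On this sum, which the brightest genes dominate, the Cdx2-FGF arrays lay below the ES arrays. Gene by gene, 2 of the 7 (Elavl4 and Dcx) were higher in Cdx2-FGF cultures than in ES cells and 1 (Stmn2) was lower. Over all genes, 25.4% were higher and 27.2% lower. The median difference of the 7 was 0. The neuronal list was placed by a median of deviations, so its position and that of the sum are not alike in measure. All 4 tested motor neuron markers rose and then fell, with sums of 5.47 to 6, 12.96 to 13.53 and 9.81 to 10.12. The part of the number of neurons in the tubulin and kinesin values was not tested.

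The mitotic list held 11 kinesins, of which 9 were tested. From ES cells to motor neuron cultures 3 of the 9 fell (33.3%) and none rose by the chosen probe sets. That share is near the 30.7% of all genes that fell. The median log2 difference was -0.77, with a range from -3.66 for Kif18a to 0.82 for Kif2c. From motor neuron to Cdx2-FGF cultures 4 of the 9 rose (44.4%, where 11.2% of all genes did) and none fell, with a median of 0.98, and all 9 differences were positive, from 0.11 to 1.3. The median deviation per array was 0.27, -0.09 and 0.05 on ES arrays, -0.83, -0.32 and -0.24 on motor neuron arrays, and 0.45, 0.2 and 0.24 on Cdx2-FGF arrays. Motor neuron arrays were lowest, and the ES and the Cdx2-FGF arrays overlapped. Motor neuron replicate 1, at -0.83, was the lowest of all, and without it the median difference from ES cells was -0.44.

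Promoters of the members were read from RefSeq (assembly GRCm38.p6), from 250 bases before to 50 bases after the transcript start. A promoter was found for 52 of the 65 genes, and none for Dync1li2, Dync2li1, Dynll2, Kif13b, Kif20a, Kif21b, Kif28, Kif5a, Kif5b, Tubb2a-ps2, Tubb2b, Tubb6 and Tubg1. Genes switched on late in the cell cycle often carry the cell cycle genes homology region (CHR), TTTGAA, near the start, together with CCAAT boxes. Both motifs were searched on both strands, so TTCAAA and ATTGG also count, and the matches did not overlap each other. The stretches below run from 70 bases before the start through the first 30 bases of the first exon, and capitals mark CHR and CCAAT matches. They show 4 mitotic kinesins with a CHR at the start, the mitotic Kif18a, which had no match to either motif, and the neuronal Tubb3 for contrast.
Kif11 at chr19:37376312-37376411, plus strand: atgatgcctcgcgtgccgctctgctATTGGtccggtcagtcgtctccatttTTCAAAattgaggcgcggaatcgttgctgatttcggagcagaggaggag
Kif23 at chr9:61946770-61946869, minus strand: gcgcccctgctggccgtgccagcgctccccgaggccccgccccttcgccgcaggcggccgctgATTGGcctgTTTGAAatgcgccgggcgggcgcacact
Kif18b at chr11:102925095-102925194, minus strand: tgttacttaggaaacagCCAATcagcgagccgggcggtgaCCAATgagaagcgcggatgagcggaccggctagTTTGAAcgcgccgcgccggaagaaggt
Kif20b at chr19:34922288-34922387, plus strand: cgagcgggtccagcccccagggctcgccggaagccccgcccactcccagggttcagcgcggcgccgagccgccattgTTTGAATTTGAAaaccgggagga
Kif18a at chr2:109280668-109280767, plus strand: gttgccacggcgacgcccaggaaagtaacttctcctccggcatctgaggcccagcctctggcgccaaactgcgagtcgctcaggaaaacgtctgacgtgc
Tubb3 at chr8:123411483-123411582, plus strand: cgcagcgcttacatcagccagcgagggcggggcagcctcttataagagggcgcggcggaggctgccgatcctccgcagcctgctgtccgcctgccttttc

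Of the 10 mitotic genes with a promoter, 9 held TTTGAA, all but Kif18a. Of the 10 neuronal genes with a promoter, 1 did (Kif1a), and over all 32851 promoters the share was 17.9%. Within 30 bases of the start, a window chosen after the positions were seen, 7 of the 10 mitotic genes had a match (Kif11, Kif15, Kif18b, Kif20b, Kif22, Kif23 and Kif4), against 3.19% of all promoters. Outside the mitotic list Kif26b alone among the members had one there. In Kif11 the match began 19 bases before the start, in Kif23 it began 2 bases after it and in Kif18b 3 bases after it. Kif20b held 2 copies side by side, from 7 and 13 bases after the start. CCAAT was found in 6 of the 10 mitotic and 2 of the 10 neuronal promoters (Tuba1a and Tubb3), and in 37.4% of all promoters. That of Tubb3 lies 77 bases before the start, outside the printed stretch. The variant TTCGAA was found in Kif24 alone among the members, and in 1.56% of all promoters. These are matches of letters, and binding was not measured.

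**Figure D2:**
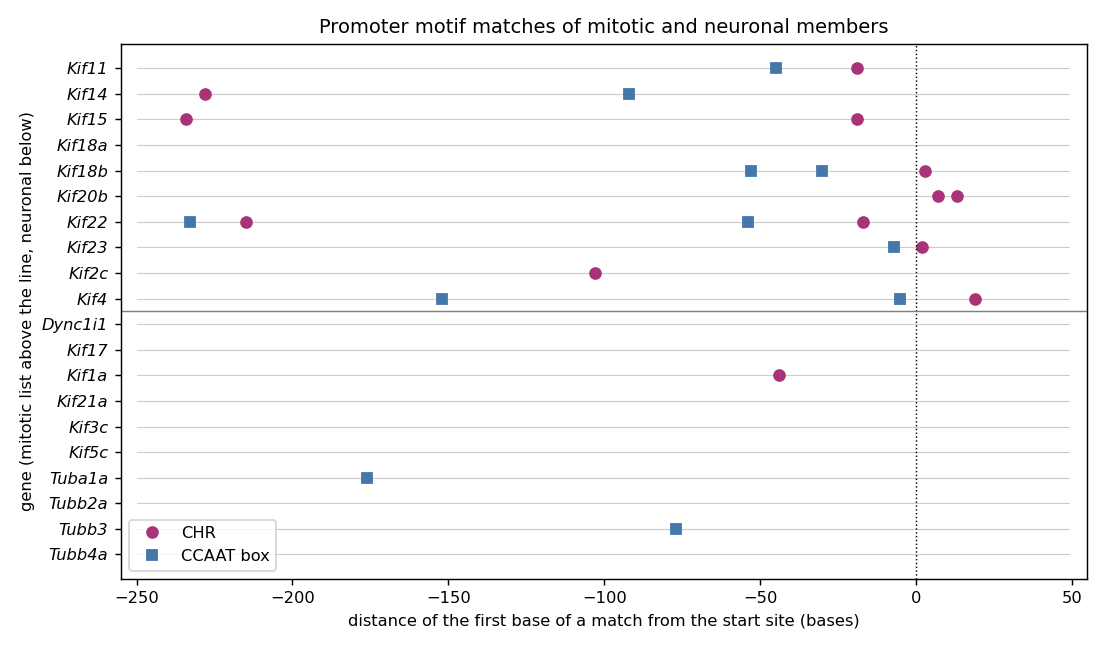
Distance of the first base of each CHR (TTTGAA, circles) and CCAAT (squares) match from the transcript start, on either strand, for the 10 mitotic and 10 neuronal genes with a promoter. CHR matches sit within 30 bases of the start in 7 of the 10 mitotic genes and in none of the neuronal genes.

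The 4 mitotic kinesins called higher in Cdx2-FGF than in motor neuron cultures were Kif20b, Kif23, Kif18a and Kif18b. Kif20b, which acts in cytokinesis, read 10.63, 11.57 and 10.54 on ES arrays, 9.03, 9.42 and 9.18 on motor neuron arrays, and 10.65, 10.41 and 10.45 on Cdx2-FGF arrays. It fell 3.26-fold (adjusted p = 0.000235) and then rose 2.46-fold (log2 difference 1.3, SE 0.26, adjusted p = 0.00461), back to a level that overlapped the ES arrays. A second Kif20b probe set also fell and rose (-2.76 and 1.21) but stayed 1.55 below ES cells on the log2 scale (adjusted p = 9.07e-05), so the return to the ES level rested on 1 probe set. The rise in Kif20b was called whichever array was left out, but not with the mean of its 4 probe sets (0.63), of which 2 were below 4 on every array. Kif23, a part of the centralspindlin complex of the midbody, read 11.23, 10.62 and 11.13, then 9.16, 9.96 and 9.88, then 11.06, 10.65 and 10.61. It fell 2.51-fold (adjusted p = 0.00103) and rose 2.15-fold (adjusted p = 0.00905). A second Kif23 probe set gave 0.99 from ES cells and 0.81 between the day 5 groups, so the fall from ES cells rested on 1 probe set. The Kif23 rise went below 1 without motor neuron replicate 1 (0.85) or Cdx2-FGF replicate 1 (0.96).

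Kif18a, which steadies chromosomes at the spindle equator, read 10.89, 10.65 and 10.76 on ES arrays, 6.99, 6.32 and 8.01 on motor neuron arrays, and 8.43, 8.18 and 8.42 on Cdx2-FGF arrays. It fell 12.6-fold (log2 difference -3.66, SE 0.37, adjusted p = 1.18e-05), the most of the mitotic list. Its rise of 1.24 (adjusted p = 0.0283) was lost in a fit on the 6 day 5 arrays alone (adjusted p = 0.0635), and without any one of the 3 Cdx2-FGF replicates or motor neuron replicate 1 or 2 (differences 0.84 to 1.31, adjusted p 0.0636 to 0.0932). In the Cdx2-FGF cultures it remained 5.36-fold below ES cells (adjusted p = 0.000235). Kif18b, which shortens astral microtubules, read 9.72, 9.49 and 10.01, then 8.3, 9.25 and 9.34, then 9.95, 9.92 and 10.2. It rose 2.08-fold between the day 5 groups (adjusted p = 0.0178), and the call was lost without motor neuron replicate 1 (0.73) or Cdx2-FGF replicate 1 or 3 (1.1 and 0.97, adjusted p = 0.0504 and 0.0709).

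The other 5 tested mitotic kinesins were not called between the day 5 groups. Kif20a, which brings Aurora B to the central spindle, read 10.91, 10.37 and 10.72, then 10.16, 10.66 and 10.65, then 11.53, 11.48 and 11.34, a difference of 0.96 (adjusted p = 0.00369) with no overlap. Kif4, a chromosome-bound motor, read 9, 8.92 and 8.65, then 8.21, 8.87 and 8.83, then 9.84, 9.53 and 9.5, a difference of 0.98 (adjusted p = 0.00937), again with no overlap. Both fell short of the minimum of 1. Kif2c, which takes microtubule ends apart at kinetochores, read 10.57, 9.88 and 10.64, then 10.99, 11.13 and 11.44, then 11.97, 11.94 and 11.85. Kif2c differed by 0.82 from ES cells to motor neuron cultures (adjusted p = 0.00509), with no overlap but short of 1. Its difference between the day 5 groups was 0.73 (adjusted p = 0.0232). It was the one mitotic member called higher in Cdx2-FGF cultures than in ES cells by its chosen probe set (2.94-fold, adjusted p = 0.000102). Its other 2 tested probe sets gave 1.35 and 1.55 between the day 5 groups, and both were called higher there. From ES cells to motor neuron cultures they gave fitted differences of 0.16 and 3.43.

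Kif11, which pushes spindle poles apart, read 11.61, 12.03 and 11.16, then 10.41, 10.78 and 10.91, then 11.14, 11.11 and 11.14. Its differences were -0.9 (adjusted p = 0.00387) and 0.43 (adjusted p = 0.163). The 3 probe sets of Kif11 gave -0.9, -0.42 and 1.62 from ES cells, on both sides of 0. Kif22, which pushes chromosome arms towards the equator, read 11.91, 11.51 and 11.68, then 11.5, 11.51 and 11.62, then 11.7, 11.61 and 11.66, with overlapping groups and differences of -0.15 and 0.11. Its other 2 probe sets gave 0.9 and 0.93 between the day 5 groups.

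**Figure D3:**
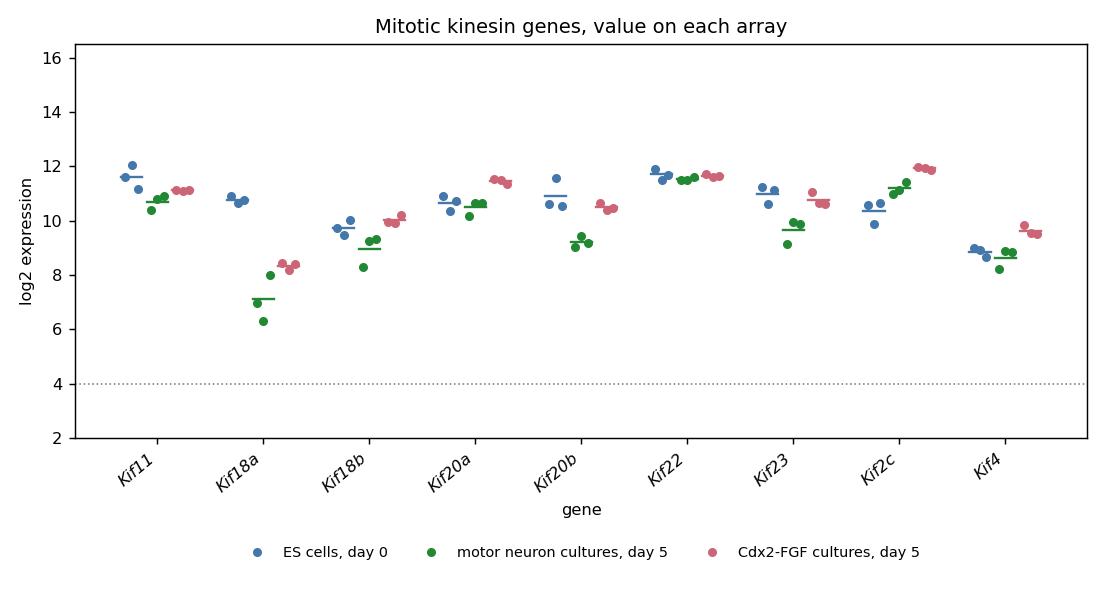
Log2 expression of the 9 tested mitotic kinesins on each of the 9 arrays (points) with group means (bars); the dotted line marks 4. Motor neuron arrays of Kif18a spread from 6.32 to 8.01, below the ES arrays at 10.65 to 10.89, and the Cdx2-FGF arrays of Kif20b (10.41 to 10.65) lie above its motor neuron arrays (9.03 to 9.42).

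Markers of other cell types moved between the day 5 groups too. All 5 tested smooth muscle and mesoderm markers rose in Cdx2-FGF cultures, with Acta2 at least 517-fold and Meox1 at least 123-fold higher, motor neuron values below 4 set to 4, while Tbx6 and Msgn1 were below 4. The log2 of the sum of the 7 markers ran from 10.29 to 14.02 on ES arrays, 5.35 to 8.56 on motor neuron arrays, and 14.79 to 14.94 on Cdx2-FGF arrays. Of the 8 fibroblast markers, 3 collagen genes rose and 5 (Thy1, Dcn, Lum, Postn and Fbln2) were below 4 in Cdx2-FGF cultures, with sums of 8.92 to 9.24 against 5.28 to 5.29 in motor neuron cultures and 10.39 to 13.01 in ES cells. Neural progenitor markers had sums of 13.91 to 14.13 and 13.56 to 13.67 in the day 5 groups, and 1 of 6, Hes5, fell. The part of these cells in the mitotic values was not tested.

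Among the tubulins used by most cells, Tubb6 was the one that changed between the day 5 groups. It read 11.2, 11.15 and 12.06 on ES arrays, 11.17, 11.18 and 11.61 on motor neuron arrays, and 12.91, 12.88 and 12.76 on Cdx2-FGF arrays. It rose 2.88-fold from motor neuron to Cdx2-FGF cultures (log2 difference 1.53, SE 0.23, adjusted p = 0.000957), and the ES and motor neuron arrays overlapped. A dimmer Tubb6 probe set gave -0.77 between the day 5 groups, and the mean of both was not called (0.38). Tubb5, the main beta tubulin of dividing cells, read 13.64, 13.32 and 13.88, then 14.88, 14.98 and 14.84, then 14.7, 14.74 and 14.75. It rose 2.44-fold from ES cells (adjusted p = 7.86e-06), where a second Tubb5 probe set gave -0.21, and differed by -0.17 between the day 5 groups. Tubg1, the gamma tubulin of centrosomes, read 9.49, 8.55 and 9.73, then 10.52, 10.77 and 10.64, then 10.84, 11.12 and 10.79. It rose 2.62-fold from ES cells (adjusted p = 0.00127) and differed by 0.27 between the day 5 groups. Tubb4b, a widely used beta tubulin, overlapped between ES and motor neuron cultures at 11.79 to 12.93 and 12.52 to 12.84, and read 13.11, 13.21 and 13.09 in Cdx2-FGF cultures, without a call in either comparison.

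Tuba4a, an alpha tubulin made without the C-terminal tyrosine, went the other way from the neuronal tubulins. It read 13.71, 13.16 and 13.51 on ES arrays, 8.54, 9.48 and 9.84 on motor neuron arrays, and 10.7, 10.81 and 10.18 on Cdx2-FGF arrays. It fell 18.1-fold (log2 difference -4.18, SE 0.32, adjusted p = 1.86e-06), and a second probe set gave -3.79. Its rise of 1.28 between the day 5 groups (adjusted p = 0.0134) was lost without motor neuron replicate 1 (0.9) or Cdx2-FGF replicate 1 or 2 (1.21 and 1.16, adjusted p = 0.0527 and 0.0575), and the second probe set gave 0.3. The other 4 restricted tubulins, Tuba3b, Tuba8, Tubb1 and Tubg2, were below 4 on every array. Tubb2a-ps2, by its symbol a pseudogene of Tubb2a, read 9.18, 8.75 and 8.27, then 12.54, 12.36 and 12.26, then 10.64 on each Cdx2-FGF array. Its fall of 3.34-fold between the day 5 groups was the same as that of Tubb2a, and whether its probe set takes up Tubb2a RNA was not tested.

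Of the 14 kinesins on no special list, 9 were tested, and Kif26b showed the widest difference among them between the day 5 groups. Kif26b, an atypical kinesin needed for kidney development, read 2.99 on each ES and motor neuron array and 8.18, 8.56 and 8.34 on the Cdx2-FGF arrays. It was at least 20.6-fold higher there than in motor neuron cultures (adjusted p = 1.34e-07), with values below 4 set to 4. It could only come out higher, since it was tested through these arrays, and it was the one rise between the day 5 groups called under every alternative that gave a value. Kif16b, which moves early endosomes, read 10.84, 10.81 and 10 on ES arrays, 4.79, 4.74 and 6.2 on motor neuron arrays, and 7.26, 7.15 and 7.23 on Cdx2-FGF arrays. It fell 39.6-fold (log2 difference -5.31, SE 0.41, adjusted p = 1.9e-06), the largest fall of any member from ES cells, and then rose 3.92-fold (adjusted p = 0.0052). With the mean of its 3 probe sets, 1 of them below 4 on all day 5 arrays, the rise was 0.97 (adjusted p = 0.0597).

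Kif1b, which carries mitochondria and synaptic vesicle precursors, read 9.42, 9.17 and 10.17, then 12.06, 12.25 and 11.94, then 11.29, 11.13 and 11.27. It rose 5.65-fold (adjusted p = 7.22e-06), and the difference between the day 5 groups was -0.85 (adjusted p = 0.02). Its 7 tested probe sets gave differences from -0.9 to 8.83 from ES cells. Kif13b, a motor of membrane vesicles, read 8.25, 8.74 and 9.47, then 10.32, 10.68 and 10.39, then 9.16, 9.07 and 9.23. It rose 3.11-fold (adjusted p = 0.000505) and fell 2.47-fold (adjusted p = 0.00658), back to values within the ES range, and neither was called with the mean of its 4 probe sets, of which 2 were below 4 on every array. Kif1c, a vesicle motor of many cell types, rose in both steps, by 1.43 (adjusted p = 6.23e-05) and 1.07 (adjusted p = 0.00172). The second rise went to 0.95 without motor neuron replicate 1. Kif2a, Kif5b, Kif13a and Kif26a were not called in either comparison.

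Of the 8 motors of cilia and centrioles, 5 were tested. Kif3b, a subunit of the motor that builds cilia, read 6.32, 6.04 and 6.44, then 8.29, 8.14 and 7.84, then 6.93, 7.24 and 7.09. It rose 3.54-fold from ES cells (adjusted p = 6.26e-05), and its 4 probe sets gave 1.83, 1.84, 1.52 and -1.53, the second of them with 2 ES arrays below 4. Without the probe sets that share probes with other transcripts, the brightest of the rest gave -1.53 (adjusted p = 0.0116), which turned the direction. All 4 gave negative differences between the day 5 groups, from -1.01 to -0.51, and the call there (adjusted p = 0.00893) was lost without motor neuron replicate 1 or 2 or Cdx2-FGF replicate 1 (differences -0.98 to -0.91). Kif3a, the partner of Kif3b in that motor, read 10.07, 9.42 and 9.14, then 10.5, 10.49 and 10.44, then 10.04, 10.52 and 10.2, with differences of 0.93 (adjusted p = 0.00546) and -0.22 (adjusted p = 0.544), neither called. Its other 3 probe sets gave 3.94, 4.9 and 0.93 from ES cells and -0.69, -1.53 and -1.75 between the day 5 groups. With the mean of its 4 probe sets both differences of Kif3a were called (2.68, adjusted p = 2.73e-07, and -1.05, adjusted p = 0.000425). Kif24, which keeps centrioles from making cilia, read 9.46, 9.75 and 8.9, then 8.01, 7.78 and 8.3, then 8.42, 8.5 and 7.59, and fell 2.53-fold from ES cells (adjusted p = 0.00361). A second Kif24 probe set gave -0.64 (adjusted p = 0.186). The call was lost with median centring (-0.92) and with the mean of its probe sets (-0.63), which takes in a probe set below 4 on every array. Dync2li1, a subunit of the cilium dynein, read 9.15, 9.62 and 8.15, then 10.16, 10.03 and 10.03, then 10.49, 10.39 and 10.27. It rose 2.15-fold from ES cells (adjusted p = 0.0101), a call lost without ES replicate 3 (0.69). Kif7, a regulator of hedgehog signalling at the cilium tip, overlapped in all groups, with differences of -0.22 and -0.04. The ciliated cell markers Foxj1 and Tekt1 were below 4 on all arrays.

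By the probe set chosen for each gene, the differences of the 10 tested dyneins between the day 5 groups ran from -0.54 to 0.51. None of the 10 was called there by limma, although 3 of them, Dync1i2 (-0.41), Dynll2 (-0.39) and Dynlt3 (0.51), had an adjusted p below 0.05 and 4 had an unadjusted p below 0.05. Other probe sets gave wider differences, of -1.55 for Dynll1, a light chain (adjusted p = 0.00136), which was called lower. For Dynlt3, another light chain, they gave 1.02, 0.92 and 0.73 (adjusted p = 0.106, 0.034 and 0.0128), and for Dync1li2 -0.81 (adjusted p = 0.019), none of them called. The heavy chain Dync1h1, the motor itself, read 11.39, 11.43 and 11.28, then 11.29, 11.55 and 11.56, then 11.58, 11.77 and 11.78, with differences of 0.1 and 0.25 (adjusted p = 0.463 and 0.146). From ES cells to motor neuron cultures, 3 of the 9 subunits of the main cytoplasmic dynein rose (33.3%, where 25.9% of all genes did). Dynlt1f, a light chain that binds cargo, read 7.82, 8.23 and 7.37, then 10.19, 10.29 and 10.1, then 9.44, 9.86 and 9.64, a rise of 5.22-fold (adjusted p = 1.07e-05). Its probe set can take up related light chain RNA. Dynlrb1, a roadblock light chain, read 12.38, 12.04 and 11.25, then 13.48, 13.3 and 13.3, then 13.09, 13.07 and 12.77, a rise of 2.77-fold (adjusted p = 0.000408). Dync1li2, a light intermediate chain, read 9.76, 11.35 and 10.32, then 11.47, 11.61 and 11.66, then 11.29, 11.39 and 11.4. Its rise of 1.1 (adjusted p = 0.0117) went to 0.74 without ES replicate 1. A second Dync1li2 probe set gave 0.45 (adjusted p = 0.0782), and the mean of both was not called (0.78), so the rise rested on 1 probe set. Dynll2, a light chain shared with other complexes, read 11.37, 11.58 and 11.71, then 12.03, 12.07 and 12.26, then 11.8, 11.81 and 11.57, and was not called in either comparison. A second Dynll2 probe set was 1.55 higher in motor neuron cultures than in ES cells (adjusted p = 0.00136), and the mean of both gave a called difference of 1.06 (adjusted p = 0.000652). Dynll1, its close relative, differed by 0.01 and -0.01 by the chosen probe set, and its other 3 gave 0.88, 0.19 and -0.6 from ES cells.

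**Figure D4:**
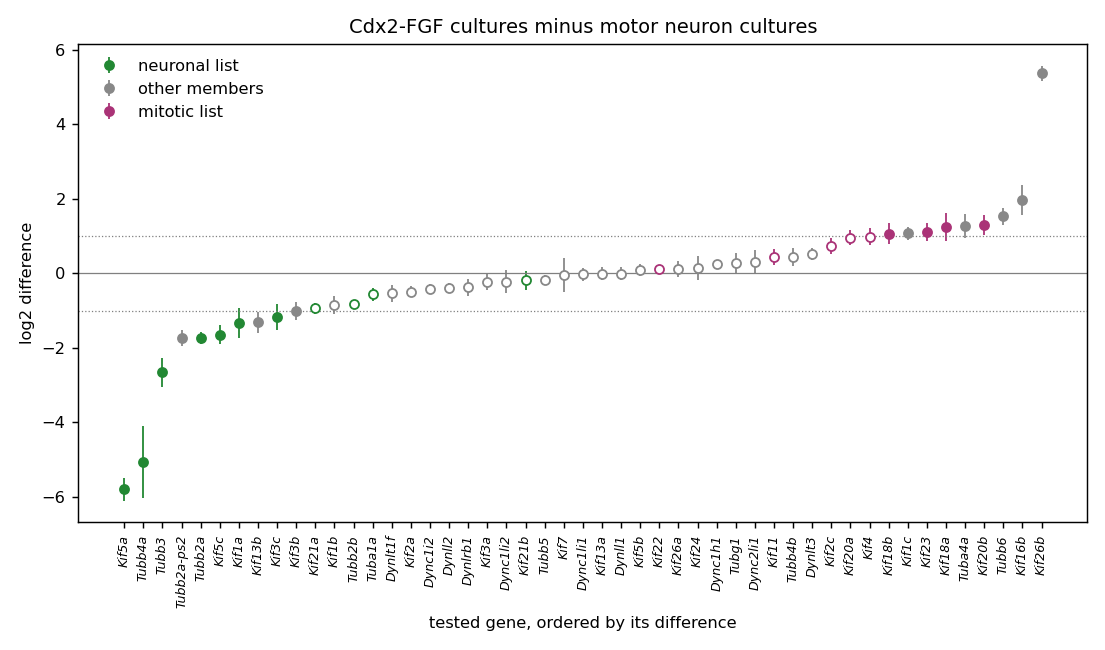
Log2 difference of Cdx2-FGF cultures minus motor neuron cultures for the 49 tested genes, ordered by size, with the SE from limma; filled points were called, open points were not, and dotted lines mark differences of -1 and 1. Neuronal members (green) lie from -5.79 for Kif5a to -0.19, mitotic members (purple) from 0.11 to 1.3, and Kif26b is highest at a plotted 5.37, which is at least 4.36 with its motor neuron values set to 4.

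Cdx2-FGF cultures were also compared with ES cells, with arrays that both earlier comparisons share. Of the 49 genes 14 were higher (28.6%) and 5 lower (10.2%), where 25.4% of all genes were higher and 27.2% lower. With each array centred on its median, the counts were 26 higher and 4 lower, where 34.2% of all genes were higher and 20.0% lower. This scaling shifted the all-gene median from -0.08 to 0.35 for motor neuron cultures against ES cells, and to 0.43 for this comparison. Of the 11 neuronal genes 3 were higher than in ES cells and 1, Kif5a, was lower. Tubb3 was 7.06-fold higher (adjusted p = 0.000123), Kif1a was at least 5.8-fold higher (adjusted p = 1.42e-05) and Kif3c 5.68-fold higher (adjusted p = 0.000111). Here too Kif1a could only come out higher. Kif5a was 4.09-fold lower (adjusted p = 0.000257), whereas its second probe set gave 0.48 with both groups below 4, and the mean of its 3 probe sets, 1 of them at the floor on every array, was not called. Of the 9 mitotic genes, Kif2c was higher and Kif18a lower by the chosen probe sets. Other probe sets were called higher for Kif11 (2.04), Kif22 (1.06 and 1.08) and Kif23 (1.8), and lower for Kif20b (-1.55). The Tubb4a difference was 1.13 (adjusted p = 0.316), with overlapping arrays, and it was called without ES replicate 3 (2.35, adjusted p = 0.00899).

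For the 27 members with more than 1 tested probe set, the range of log2 differences among probe sets of a gene had a median of 2.32 for motor neuron cultures against ES cells and 0.51 between the day 5 groups. Ranges over 2 were found for 14 genes in the first case and for 2 in the second. Against ES cells, 12 genes had probe sets on both sides of 0, and 4 of these, Dynlt3, Kif13a, Kif3b and Kif5b, were called in both directions. Dynlt3 gave 4.99, 0.08, -0.56 and -1.42, and Kif13a gave 2.52, 1.86, 0.28, 0.07 and -4.38. Some of these are fitted against values below 4, among them the -4.38 of Kif13a, the 7.33 of Kif2a and the largest of Kif1b, which become -2.78, 6.41 and 8.04 with such values set to 4. Kif2a, which shortens microtubules, gave 7.33, 2.02, -0.48 and -0.7. Kif5b gave 1.36, 1.03, 0.55, -1.57 and -1.9. Between the day 5 groups 6 genes had probe sets on both sides of 0, and no gene was called in both directions. The difference in the Actb and Tfrc control probe sets given above moves with this spread, and its part was not tested.

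**Figure D5:**
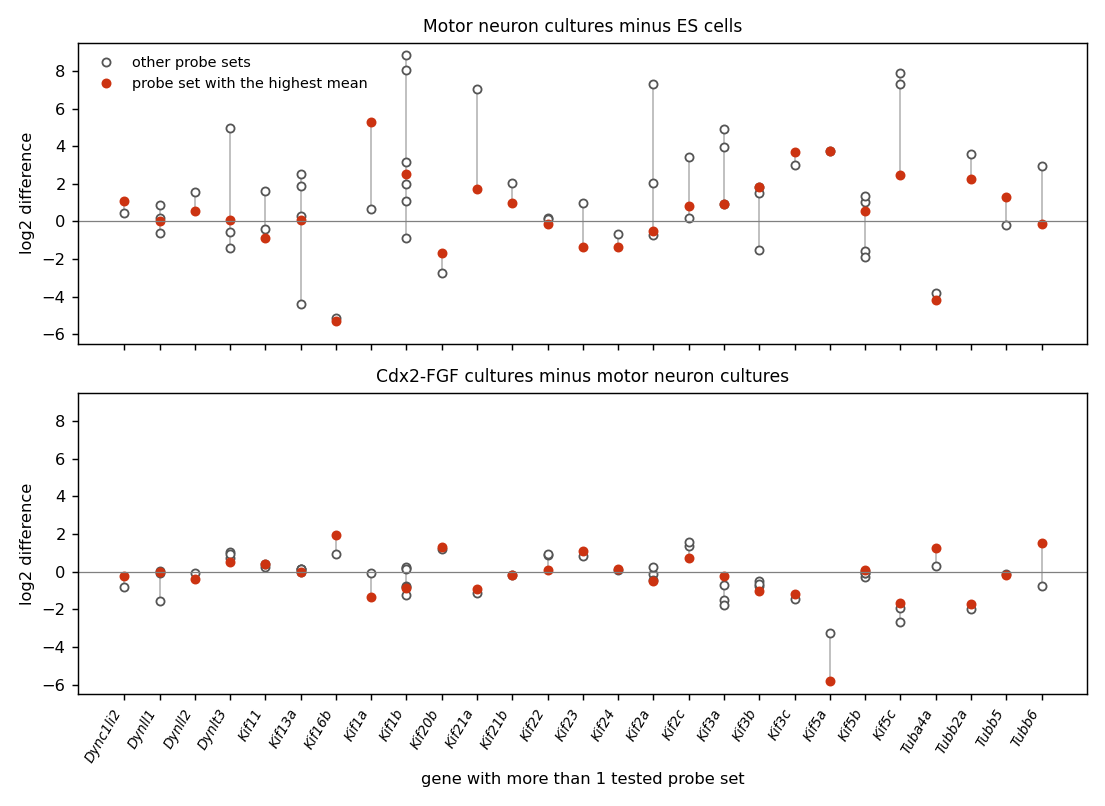
Log2 differences of every tested probe set for the 27 genes with more than 1, for motor neuron cultures minus ES cells (top) and Cdx2-FGF minus motor neuron cultures (bottom); filled points are the probe set used for the gene and lines join probe sets of a gene. The median range within a gene is 2.32 in the top panel, with a maximum of 9.73 for Kif1b, and 0.51 in the bottom panel, with a maximum of 2.51 for Kif5a.

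Proteins that work with these motors were counted from lists. Over all genes tested, 25.9% rose and 30.7% fell from ES cells to motor neuron cultures. From there to Cdx2-FGF cultures, 11.2% rose and 8.61% fell. Of 21 tested microtubule-associated proteins, 11 rose (52.4%) and 1 fell (4.76%) in the first of these comparisons. In the second, 12 fell (57.1%) and 1 rose (4.76%). Dcx, which steadies microtubules in migrating neurons, rose at least 456-fold, from below 4 on every ES array, and then changed by -7.14 on the log2 scale. Mapt, the tau protein of axons, rose by 2.3 and then fell at least 22.1-fold, to below 4. Map7, which recruits conventional kinesin to microtubules, fell at least 255-fold and rose at least 5.57-fold, with 1 motor neuron array below 4. Of 12 tested kinesin partners 3 rose (25%) and 6 fell (50%) in the first comparison. In the second, 3 rose (25%) and 2 fell (16.7%). The kinesin light chain Klc1 changed by 6.06 and -4.05. The mitotic minus-end motor Kifc1 fell at least 94.1-fold and rose at least 6.95-fold, with 1 motor neuron array below 4, and the kinetochore motor Cenpe changed by -2.22 and 1.28.

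Of 16 tested spindle partners, 2 rose (12.5%) and 7 fell (43.8%) from ES cells to motor neuron cultures. Over all genes, 25.9% rose and 30.7% fell there. In Cdx2-FGF cultures 4 of the 16 rose (Aurka, Plk1, Bub1 and Bub1b) and none fell. That is 25% higher, where 11.2% of all genes rose and 8.61% fell. The median was 0.71, and all 16 differences were positive. Of 14 tested dynactin genes and dynein regulators, 6 rose (42.9%) and 2 fell (14.3%) in the first comparison. None was called by limma in the second, where 8 had an unadjusted and 7 an adjusted p below 0.05. The differences there ran from -0.69 to 0.92. Dctn3, a dynactin subunit, rose by 3.45 and Hook1, an adaptor that links dynein to cargo, fell by 5.37 on the log2 scale from ES cells. Of 17 tested genes of tubulin folding, modification and severing, 5 rose (29.4%) and 3 fell (17.6%). Then 1 rose (5.88%) and 2 fell (11.8%). Atat1, which acetylates alpha tubulin, rose at least 83.5-fold from ES cells and differed by -0.36 between the day 5 groups. Ttl, which puts tyrosine back on alpha tubulin, fell by 1.08 in Cdx2-FGF cultures. Of 8 gamma tubulin complex genes 1 rose and 1 fell (12.5% each), and then 1 (12.5%), Nedd1, rose by 1.17.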

How the data were processed

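Per the labels, RNA was amplified with a NuGEN Ovation kit, and the submitters' processing notes name GCRMA and limma, without versions. The values the authors deposited are log2 expression per probe set, from 2.165 to 16.12. That the scale is log2 was inferred from their range. They were used as deposited, since GCRMA values are already background-corrected and normalized. Of 45101 probe sets, 34945 have 1 symbol, 932 several and 9224 none. A gene is its probe set with the highest mean. Differences were tested with limma 3.58.1 (lmFit, eBayes with trend; R 4.3.3) on all 9 arrays, without a block. The call rule is in the text. A fold is a lower bound where an array of the dimmer group is below 4. The script was tested on simulated data. The number of arrays limits the precision.

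The members and lists were chosen with earlier results of these data known. Values on every array are given for the tested neuronal and mitotic members and for up to 4 members of each other list with the largest differences, called members first. Further members (Kif1c, Dync1h1, Tubb2a-ps2) were added after their values were seen. Promoters are from RefSeq.

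The shared replicate numbers were checked as pairs. Deviations of arrays with the same number correlated from -0.026 to 0.077, so the numbers were not used to pair arrays. Alternatives covered probe set choice, filters, centring, quantile normalization, array weights, the prior, a replicate block and leaving out each array.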

Additional observations from a re-analysis of the deposited data

How the results depend on the processing

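With each probe set tested by itself (101 tested), the members called were 48 higher and 14 lower for motor neuron cultures against ES cells, 18 lower for Cdx2-FGF against motor neuron cultures, and 42 higher and 14 lower for Cdx2-FGF cultures against ES cells. The median differences then became 3.61 (neuronal) and -0.18 (mitotic) against ES cells and -1.47 (neuronal) between the day 5 groups. With probe sets averaged per gene, 2 members rose between the day 5 groups, 3 were lower in Cdx2-FGF cultures than in ES cells, and the medians were 2.93 and -0.18 from ES cells to motor neuron cultures, and 0.65 (mitotic) between the day 5 groups. Median centring gave 26 members higher in Cdx2-FGF cultures than in ES cells, and medians of 2.9 (neuronal) and -0.35 (mitotic) from ES cells to motor neuron cultures. Without a minimum difference, 17 members fell between the day 5 groups and 29 were higher in Cdx2-FGF cultures than in ES cells. The neuronal medians were 2.25 and -1.17 without a filter, 3.08 and -1.49 without probe sets that share probes, and the second was -1.48 after quantile normalization. Kif3b reversed from ES cells to motor neuron cultures, to -1.53, when those shared probe sets were left out. The causes were not tested.

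Leaving out 1 array gave 4 to 11 members higher and 7 to 10 lower between the day 5 groups, neuronal medians of 2.26 to 2.84 and -1.66 to -1.16, and a mitotic median from ES cells between -0.96 and -0.44. With the replicate block, 21 members rose and 6 fell from ES cells, and 0 of 147 member results, called or not, changed. Over all single-gene results, 2947 stayed as they were, called or not, 72 lost a call, 55 gained one and 1 reversed. Between the day 5 groups, 1 of 9 rises and 5 of 10 falls were called under every alternative. The 1 rise was Kif26b, which could only come out higher. From ES cells to motor neuron cultures, 15 of 21 rises and 4 of 6 falls were called under every alternative. Among these 15 was Kif1a, which likewise could only come out higher. A fit on the 6 day 5 arrays alone called 8 members higher and 9 lower. Genes near the floor have no measured order.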
